A study of Mus musculus with 4 samples.

Results

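Maf encodes c-Maf, a basic leucine zipper transcription factor of the large MAF family. The array annotation gives Maf as the single gene symbol of 6 of the 45101 probe sets, and all 6 are described here. Maf was chosen from earlier results of these same data in which its level differed between the groups, so its signals and differences are given as a description, without a test. The arrays measured RNA from mouse CD4+ T cells, the lymphocytes that become helper cells, isolated as naive cells out of spleen and lymph nodes. In 2 samples the cells received TGFb1 at 1 ng/ml plus progesterone, a steroid hormone, at 2000 ng/ml. In the other 2 samples they received the same dose of TGFb1 alone, a cytokine that steers naive helper cells towards regulatory and Th17 states. Culture lasted 7 days for all 4 samples, in medium with 10% serum and 2.5 ug/ml of concanavalin A, a lectin that makes T cells divide. No strain, age or genotype is given in the labels. Nor do they say that the replicates were separate cultures or animals, so the spread between samples may be technical.

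In T cells c-Maf binds DNA at Maf recognition elements, as a pair with itself or with another leucine zipper protein. It is known as an activator of Il4 in Th2 cells, of Il21 in follicular and Th17 cells and of Il10 in several helper subsets, and as a brake on Il2. Cytokines that signal through STAT3, the receptor ICOS and TGFb are known to raise it in activated helper cells. The gene is also expressed outside the T lineage, macrophages among other cells. No sequence of Maf was available for printing.

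All 6 Maf probe sets gave higher signals with progesterone, on both arrays of the group, than on either array with TGFb1 alone. The size of the difference varied between the sets. The mean deposited signal was 1.41 times as high for the set with the smallest ratio and 7.02 times as high for the set with the largest. In 5 of the 6 sets the ratio of the means was above 2. On the log2(signal + 16) scale after quantile normalisation, the differences ran from 0.29 to 2.73 with a median of 1.75, against a median of 0.03 over the 22518 probe sets that passed the filter on dim signals. Of these 22518, 29.3% had both progesterone arrays above both TGFb1 arrays, and 2.01% had a mean normalised signal more than 2 times as high with progesterone. The rule that chose Maf used this contrast, so nothing is read from how its sets compare with those shares.

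**Figure D1:**
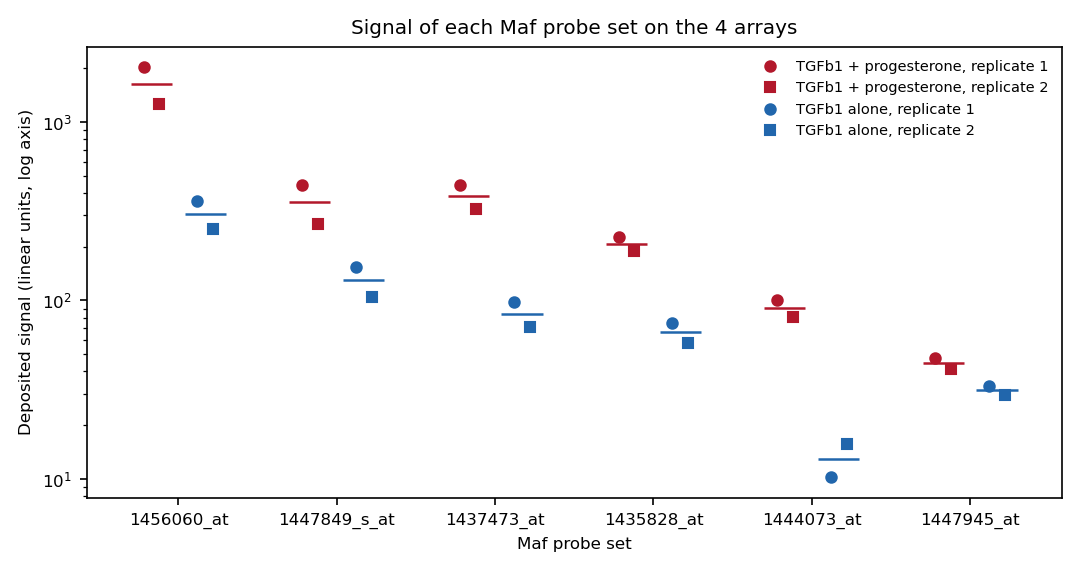
Deposited signal (linear units on a log axis) of each Maf probe set on the 4 arrays, with the 2 arrays of TGFb1 plus progesterone in red at the left of each pair and the 2 arrays of TGFb1 alone in blue at the right. Horizontal bars are group means, and in all 6 sets both red points lie above both blue points, by the least for 1447945_at.

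The set that represents the gene, 1456060_at, had deposited signals of 2024 and 1261 in the progesterone arrays, against 359.8 and 251.3 in the TGFb1 arrays. The groups lay far apart, with the lower progesterone array 3.51 times as high as the higher TGFb1 array. After normalisation the signals were 2099 and 1723 with progesterone, against 318.1 and 235.0 with TGFb1 alone. On the log2 scale the set averaged 10.91 ± 0.20 with progesterone and 8.18 ± 0.29 with TGFb1 alone (SD, n = 2 each), a difference of 2.73 ± 0.25 (SE from the arrays). By size of rise it was number 10 of the 22518 probe sets.

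Set 1437473_at had deposited signals of 443.6 and 323.6 in the progesterone arrays, against 97.4 and 71.1 in the TGFb1 arrays. Its log2 difference was 2.20 ± 0.17, again with a wide gap between the groups. Set 1435828_at had signals of 225.7 and 189.0 with progesterone, against 74.6 and 57.6 with TGFb1 alone, and a log2 difference of 1.61 ± 0.13. Set 1447849_s_at, whose suffix marks probes that match more than one transcript, had signals of 442.9 and 269.4 with progesterone, against 154.8 and 104.2 with TGFb1 alone. Its log2 difference was 1.58 ± 0.28, and here the lower progesterone array was 1.74 times as high as the higher TGFb1 array, a narrower gap than for the sets above.

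Set 1444073_at was dim with TGFb1 alone. Its deposited signals were 101.2 and 80.7 in the progesterone arrays, against 10.2 and 15.7 in the TGFb1 arrays, the largest ratio of the 6, 7.02. Because the added 16 weighs on dim signals, its log2 difference was 1.88 ± 0.14, and 2.68 with an added 1. It passed the filter on dim signals only through the progesterone arrays, the only one of the 6 to do so, and all 6 passed. The lower TGFb1 signal was that of replicate 1, opposite to the other 5 sets, where TGFb1 replicate 2 was the lower.

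Set 1447945_at stood apart from the rest. Its deposited signals were 47.3 and 41.5 in the progesterone arrays, against 33.2 and 29.6 in the TGFb1 arrays. The groups did not overlap, but the nearest arrays differed by a ratio of 1.25 and the log2 difference was 0.29 ± 0.07. Of the 22518 probe sets, 4379 had a larger rise. The annotation does not say which part of the transcript each set matches, so whether the sets report different Maf transcripts was not tested.

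The profile of each set over the 4 arrays was also set beside that of 1456060_at, as the Euclidean distance between log2 values centred on their own means. Set 1437473_at was nearest, at 0.54, with 4 of the 10511 other tested genes nearer. The distance was 1.00 for 1444073_at (15 genes nearer), 1.15 for 1447849_s_at and 1.16 for 1435828_at (24 genes nearer for both). For 1447945_at it was 2.46, with 1631 genes (15.5%) nearer, against a median of 2.74 over all these genes. Because the values were centred but not scaled, this distance depends largely on the size of the rise. Maf was chosen by that contrast, so nothing is read from these distances about agreement between the sets.

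The direction of the Maf differences did not depend on scaling. With the values as deposited 1456060_at differed by 2.35, and after centring each array on its median by 2.22. Those 2 scalings shifted the median of all tested genes to -0.22 and -0.34, so part of each smaller value is common to all genes. In all 6 sets the difference stayed above 0 when any 1 array was left out, between 2.51 and 2.90 for 1456060_at and between 0.24 and 0.36 for 1447945_at.

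**Figure D2:**
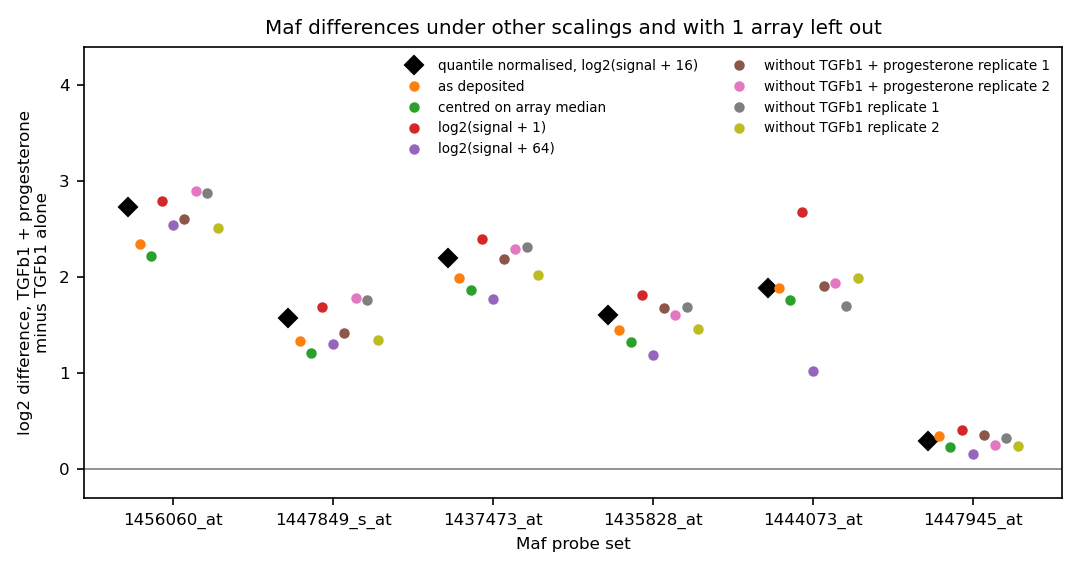
The log2 difference of each Maf probe set, TGFb1 plus progesterone minus TGFb1 alone, with the values as described (black diamonds) and under 8 other choices of scaling, added constant or arrays (coloured points). All points lie above 0, 1447945_at stays below 0.5, and 1444073_at varies most with the added constant, from 1.02 to 2.68.

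The cytokine genes that c-Maf is known to control were at or below the dim end of the arrays, where the median probe set signal was 29.9 and 24.4 in the progesterone arrays and 23.6 and 23.5 in the TGFb1 arrays. None of their probe sets passed the filter on dim signals, so none was tested, and no detection call was available. Il10, which encodes an anti-inflammatory cytokine, had deposited signals of 20.4 and 16.7 in the progesterone arrays, against 11.5 and 11.9 in the TGFb1 arrays. These values do not overlap, and the log2 difference was 0.19 ± 0.01.

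Il21, a cytokine gene of follicular and Th17 cells, had signals of 12.3 and 22.8 with progesterone, against 12.6 and 5.63 with TGFb1 alone, in the set 1450334_at. There the groups overlap. In its other set, 1447288_at, the signals were 5.79 and 6.48 with progesterone, against 2.96 and 2.86 with TGFb1 alone. Il4, the Th2 cytokine gene, had signals of 22.0 and 8.41 with progesterone, against 2.66 and 7.73 with TGFb1 alone, so the lower progesterone array lay close to the higher TGFb1 array. Il22 has no probe set of its own. The set it shares with the near-identical gene Iltifb read 0.46 and 1.15 with progesterone, against 1.72 and 0.75 with TGFb1 alone. At signals this dim, and with no detection call, neither expression nor a difference was tested for these 4 genes.

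Other genes of the c-Maf pathway were read from a limma test across all 10512 genes, each represented by 1 probe set, with Benjamini-Hochberg adjustment and a threshold of 0.05. With progesterone 321 genes (3.05%) were higher and 552 (5.25%) lower by this test. At an unadjusted p under 0.05 the shares were 11.7% higher and 12.3% lower. The lists are known biology, drawn up with earlier results of these data known.

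Of 22 genes for signals and factors that act on Maf in T cells, all were tested. With progesterone 3 rose (13.6%) and 2 fell (9.09%), against 3.05% and 5.25% of all tested genes. The median difference was 0.06, against 0.02 over all tested genes. At an unadjusted p under 0.05 by limma, 7 of the 22 were higher and 2 lower, against 11.7% and 12.3% of all genes. Both TGFb receptor chain genes rose. Tgfbr2, for the chain that binds the ligand, had deposited signals of 2865 and 2439 in the progesterone arrays, against 2319 and 2262 in the TGFb1 arrays, and a normalised difference of 0.64 ± 0.09 (limma adjusted p = 0.00558). Tgfbr1, for the signalling chain, differed by 0.65 ± 0.11 (limma adjusted p = 0.0127), with its probe sets between -0.05 and 0.65. Stat3, for the factor downstream of IL-6, IL-21 and IL-27, differed by 0.41 ± 0.10 (limma adjusted p = 0.0464).

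These 3 rises rested on scaling. With the values as deposited Tgfbr2 was at 0.21, Tgfbr1 at 0.27 and Stat3 at -0.03, and none passed there or when arrays were centred on their medians. Without progesterone replicate 2 Tgfbr2 was at 0.57 (limma adjusted p = 0.094). Tgfbr1 did not pass without progesterone replicate 1 (0.73, limma adjusted p = 0.0662) or 2 (0.58, limma adjusted p = 0.163). Stat3 did not pass without either progesterone array or without TGFb1 replicate 1, at 0.31 to 0.51, and also not with an added 1 (limma adjusted p = 0.0506), no level filter (0.111) or the upper 25% by level (0.0542).

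The pair of factors that bind together at many helper cell enhancers fell. Batf, an AP-1 family factor, had deposited signals of 349.6 and 299.6 in the progesterone arrays, against 696.2 and 668.0 in the TGFb1 arrays, and a difference of -0.71 ± 0.11 (limma adjusted p = 0.0103). Irf4, its partner, had signals of 715.7 and 565.4 with progesterone, against 1244 and 1149 with TGFb1 alone, and a difference of -0.51 ± 0.09 (limma adjusted p = 0.0167). Neither gene's groups overlapped. Both falls passed with the values as deposited, but that scaling, with a median of -0.22 over all tested genes, favours falls. Neither passed without either progesterone array, where Batf was at -0.65 and -0.78 and Irf4 at -0.50 and -0.53. Among members that did not pass, the transducer genes Smad4 and Stat6 were at 0.20 ± 0.11 and 0.06 ± 0.09, and the IL-6 receptor subunit gene Il6st at 0.02 ± 0.10.

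Of 19 genes for MAF family members, dimerisation partners and coactivators, 13 were tested, 4 were too dim and 2 are not analysed here. With progesterone 1 rose and 1 fell (7.69% each), against 3.05% and 5.25% of all tested genes, and the median was -0.01. At an unadjusted p under 0.05 by limma, 1 of the 13 was higher and 3 lower, against 11.7% and 12.3% of all genes. Myb, for the c-Myb factor that can bind c-Maf, had deposited signals of 272.0 and 197.6 in the progesterone arrays, against 701.1 and 596.1 in the TGFb1 arrays. It differed by -1.11 ± 0.12 (limma adjusted p = 0.00244), with no overlap, and passed under all 15 alternatives that were run. Bach1, for a repressor that pairs with small MAF proteins, differed by 0.58 ± 0.11 (limma adjusted p = 0.0174), with its probe sets between 0.01 and 0.58. It missed the threshold as deposited (0.25), where the median of all tested genes was -0.22, and without progesterone replicate 1 (0.56) or 2 (0.62).

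The related repressor gene Bach2 (0.09 ± 0.10), the stress response factor gene Nfe2l2 (0.28 ± 0.12) and the coactivator gene Crebbp (-0.01 ± 0.10) did not pass. The small MAF genes Mafg, Mafk and Maff did not pass either. The AP-1 genes Jun and Fos, singled out after their values were seen, were high on 1 array. Jun had deposited signals of 254.5 and 140.6 in the progesterone arrays, against 320.2 and 1974 in the TGFb1 arrays. Fos showed the same array out of line, with 65.4 and 63.2 with progesterone, against 125.2 and 948.7 with TGFb1 alone. That array, TGFb1 replicate 2, had the lower signal of 1456060_at within its group. Any link between these genes and Maf was not tested.

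Of 19 genes that c-Maf is known to control in T cells, 9 were tested, 6 were too dim and 4 are not analysed here. By limma none of the 9 rose and 1 fell (11.1%), against 3.05% and 5.25% of all tested genes. So few genes leave nothing to read from these counts. The median difference was -0.06, against 0.02 over all tested genes. At an unadjusted p under 0.05 by limma there were 2 higher and 3 lower of the 9, against 11.7% and 12.3% of all genes. The 2 higher were the chemokine receptor gene Ccr6 (1.34 ± 0.37, adjusted p = 0.0731 by limma) and the protein C receptor gene Procr (0.60 ± 0.23), named after their values were seen. Ccr6 had deposited signals of 40.2 and 59.3 in the progesterone arrays, against 3.22 and 16.1 in the TGFb1 arrays. It passed the filter on dim signals only through the progesterone arrays, so nothing is read from its place in this count. The gene that fell was Ctla4, for an inhibitory receptor, with deposited signals of 1506 and 1069 in the progesterone arrays, against 2359 and 2308 in the TGFb1 arrays. Its difference was -0.46 ± 0.09 (limma adjusted p = 0.023), and it did not pass without progesterone replicate 1 (-0.52) or 2 (-0.40). Il2ra, for the high-affinity IL-2 receptor chain, was at -0.38 ± 0.11 (limma adjusted p = 0.0783), the costimulatory receptor gene Icos at 0.15 ± 0.11 and the inhibitory receptor gene Lag3 at -0.06 ± 0.16, none of which passed. Il2ra passed without TGFb1 replicate 1 (-0.45), when arrays were centred (-0.88) and with the replicate block (limma adjusted p = 0.0162).

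**Figure D3:**
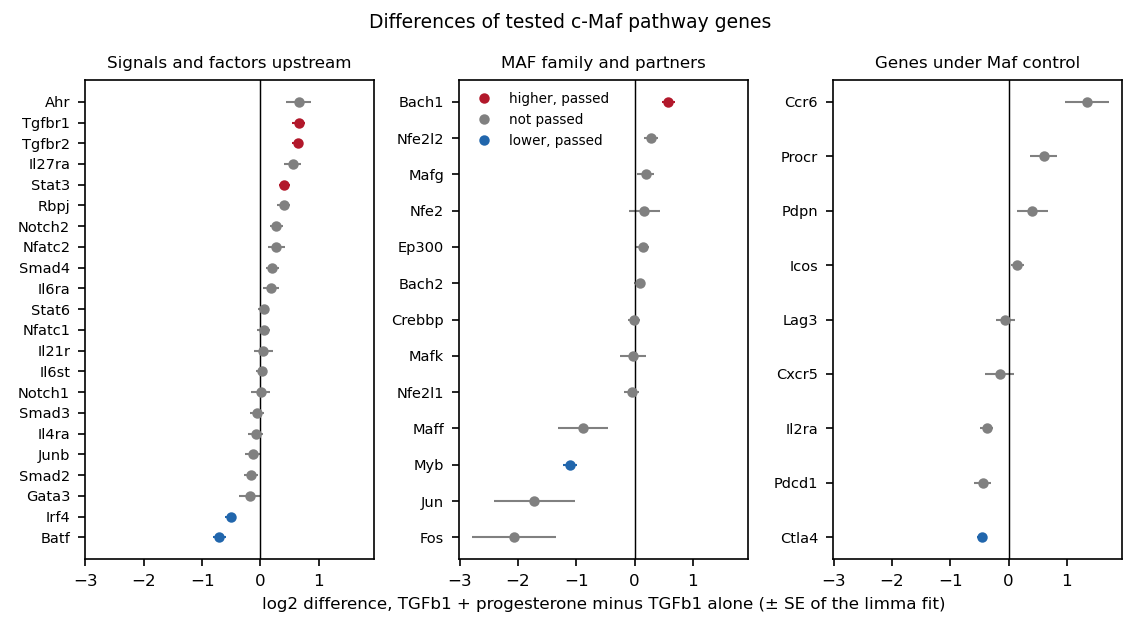
The log2 difference, TGFb1 plus progesterone minus TGFb1 alone, of each tested gene of the 3 c-Maf pathway lists, with bars of ± 1 SE of the limma fit. Red points passed the test as higher (Tgfbr1, Tgfbr2, Stat3 and Bach1), blue points as lower (Batf, Irf4, Myb and Ctla4), and grey points did not pass.

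Of the 10511 other tested genes, the 8 whose centred profiles lay nearest to 1456060_at over the 4 arrays were, in order, H2-Aa (0.29), Upp1 (0.35), H2-Ea (0.43), Mcpt1 (0.54), Mmp12 (0.69), Pf4 (0.69), Pyroxd2 (0.73) and P2ry1 (0.77). H2-Aa and H2-Ea encode chains of MHC class II, the antigen presentation molecule of B cells and myeloid cells. H2-Aa had deposited signals of 378.8 and 245.5 in the progesterone arrays, against 61.3 and 40.8 in the TGFb1 arrays. Mcpt1, a mast cell protease gene, had signals of 2674 and 2771 with progesterone, against 570.9 and 497.3 with TGFb1 alone. All 8 were higher on both progesterone arrays than on both TGFb1 arrays, which follows from picking them by nearness to Maf, so nothing is read from it.

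Upp1, for uridine phosphorylase, had signals of 609.7 and 428.6 with progesterone, against 131.7 and 74.0 with TGFb1 alone. Mmp12, the macrophage elastase gene, had 142.6 and 100.5 with progesterone, against 26.4 and 9.26 with TGFb1 alone. Deposited signals of Mmp12 and P2ry1 averaged 17.8 and 17.3 with TGFb1 alone, below the medians of those arrays (23.6 and 23.5). Their place among the ranked genes therefore rests on the progesterone arrays. Pf4, for platelet factor 4, had 570.5 and 592.4 with progesterone, against 92.5 and 42.6 with TGFb1 alone. For Pf4 and Mcpt1 the higher progesterone array was replicate 2, whereas for Maf it was replicate 1. The ranking is a description of 4 arrays in 2 groups, and any gene with a similar rise scores as near. With the values as deposited 7 of these 8 were still among the 8 nearest, and 3 to 6 were when 1 array was left out.

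**Figure D4:**
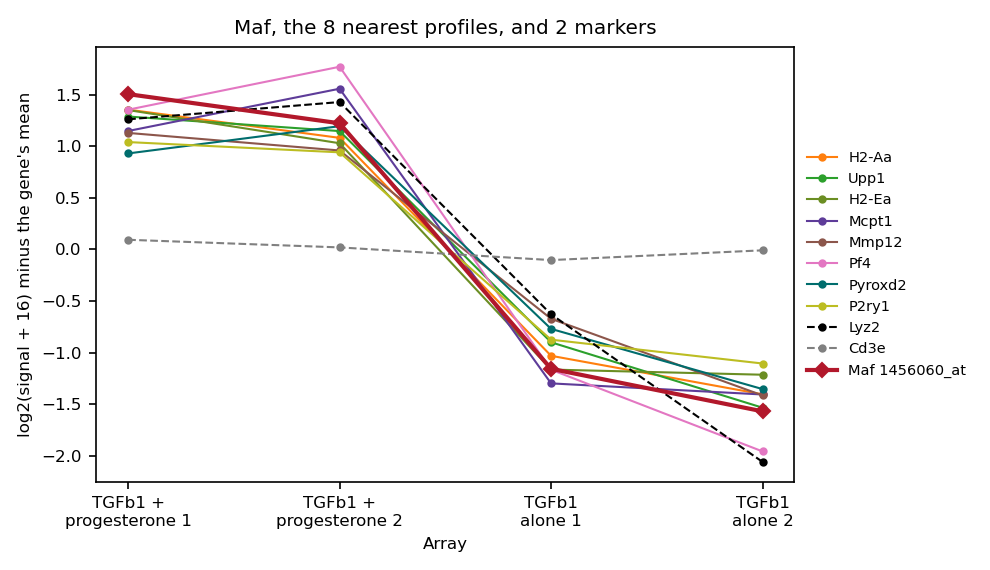
Log2(signal + 16) minus each gene's own mean, on the 4 arrays, for Maf (1456060_at, thick red line), its 8 nearest profiles (thin lines), the myeloid gene Lyz2 and the T cell gene Cd3e (dashed). The 8 lines were picked for following Maf, high on both progesterone arrays and low on both TGFb1 arrays, and Cd3e differs by 0.11 between the groups.

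Markers of other cells moved with Maf in part. In bulk RNA, a different number of cells of a type cannot be told apart from a different amount of RNA per cell. T cell markers were bright on all 4 arrays, with summed normalised signals of 26840 and 26669 with progesterone and 27112 and 28008 with TGFb1 alone over 7 genes. The closeness of these sums rests on the normalisation. As deposited Cd3d, the brightest, had 6681 and 5447 with progesterone, against 7356 and 6872 with TGFb1 alone. None of the 7 passed the limma test, with Cd3d at 0.05, Cd2 at -0.21 and Cd4 the lowest at -0.34 ± 0.10 (limma adjusted p = 0.0847). Cd4 had deposited signals of 1620 and 1220 with progesterone, against 2356 and 2475 with TGFb1 alone. Cd2 passed when arrays were centred (-0.74) and with the replicate block (adjusted p = 0.0418 by limma). At an unadjusted p under 0.05 by limma, 3 of the 7 T cell genes were lower and 0 higher. Of the 7 tested myeloid genes 3 were higher and 0 lower, and of the 5 tested mast cell and basophil genes 3 were higher and 0 lower. Over all genes the shares were 11.7% higher and 12.3% lower. Myeloid markers summed to 1043 and 1187 with progesterone and 511.7 and 304.3 with TGFb1 alone over 11 genes, with no overlap. By limma 1 of the 7 tested rose, against 3.05% of all tested genes. It was Lyz2, the lysozyme gene, with deposited signals of 675.7 and 587.7 with progesterone, against 189.0 and 53.5 with TGFb1 alone. Its difference was 2.69 ± 0.39 (limma adjusted p = 0.007), and without progesterone replicate 2 it was 2.65 and did not pass.

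Without Lyz2 the other 10 myeloid genes summed to 358.7 and 416.7 with progesterone and 338.7 and 250.2 with TGFb1 alone. The macrophage receptor gene Csf1r differed by 0.17 ± 0.30, Adgre1, which encodes F4/80, by 0.57 ± 0.28 and Cd68 by 0.66 ± 0.21. Fcgr3 differed by 0.55 ± 0.23 and Cx3cr1 by 0.07 ± 0.19, and none of these genes passed by limma. Cd14 (0.86), Mrc1 (0.51) and C1qb (0.01) were too dim to be tested. The integrin gene Itgam lay the other way, at -0.81 ± 0.40 (normalised signals 18.0 and 13.8 with progesterone and 68.2 and 21.2 with TGFb1 alone), and did not pass either. All of these but Cx3cr1 were named after their values were seen. The complement gene C1qa, a macrophage marker, read close to the bottom of all arrays, at 0.95 and 1.53 with progesterone and 0.91 and 0.89 with TGFb1 alone after normalisation.

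Mast cell and basophil markers summed to 1226 and 1557 with progesterone and 1498 and 1010 with TGFb1 alone over 5 genes, and the groups overlap. By limma 2 of these 5 rose, against 3.05% of all tested genes. Kit rose by 1.09 ± 0.16 (limma adjusted p = 0.0075) and Ms4a2 by 0.96 ± 0.23 (limma adjusted p = 0.0464), both singled out after their values were seen. Kit did not pass without progesterone replicate 2, and Ms4a2 not without either progesterone array or TGFb1 replicate 2. Cpa3 was at -0.33 ± 0.20 and did not pass, but ran from -0.61 to -0.04 with 1 array left out and passed without TGFb1 replicate 2 (limma adjusted p = 0.0437) and when centred (-0.83). Fcer1a was at 0.49 ± 0.20 and did not pass, but ran from 0.21 to 0.75 and passed without TGFb1 replicate 1 (limma adjusted p = 0.0344). B cell markers summed to 169.5 and 91.1 with progesterone and 109.7 and 78.2 with TGFb1 alone over 4 genes (Cd79a at 0.71 ± 0.34, Cd79b at 0.16 ± 0.25), and CD8 markers to 154.1 and 102.2 with progesterone and 142.8 and 169.7 with TGFb1 alone (Cd8b1 at -0.31 ± 0.24, Cd8a at -0.16 ± 0.22). None of these 4 genes passed, and with 1 array left out Cd79a ran from 0.26 to 1.19, Cd79b from -0.09 to 0.43, Cd8b1 from -0.64 to 0.01 and Cd8a from -0.25 to -0.06, the extremes of Cd79a, Cd79b and Cd8b1 coming without progesterone replicate 1 or 2. NK cell markers were dim, summing to between 25.8 and 32.1 on all 4 arrays. The part of these cells in the Maf difference was not tested.

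**Figure D5:**
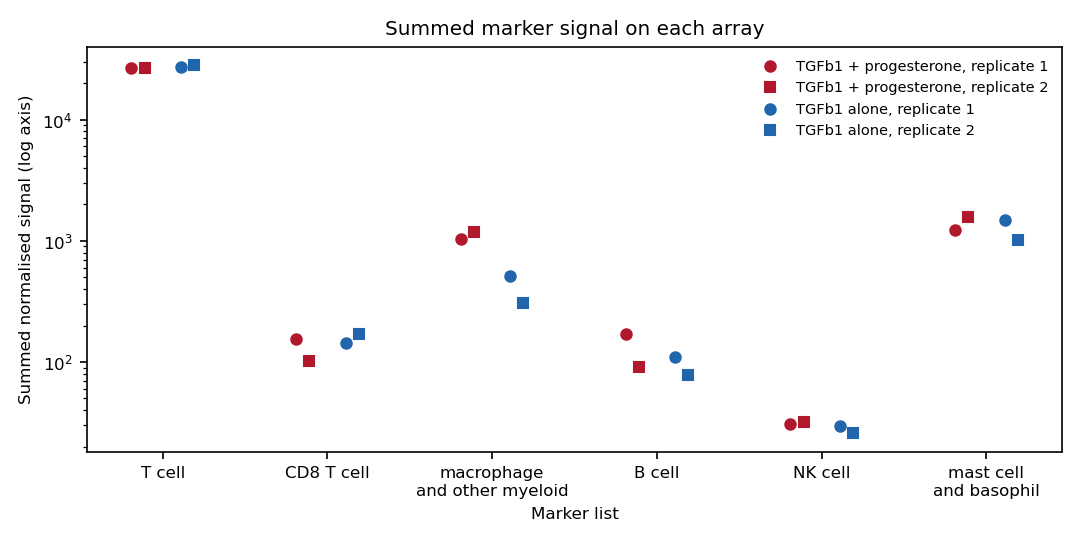
Summed quantile-normalised signal (log axis) of the marker lists of 6 cell types on each array, TGFb1 plus progesterone in red at the left and TGFb1 alone in blue at the right of each pair. The T cell sums lie between 26669 and 28008 on all 4 arrays, and the myeloid sums are the only ones besides NK cells in which both red points lie above both blue points.

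The groups also differed in sex-linked genes. Xist, the RNA of the inactive X chromosome, had deposited signals of 1390 and 825.4 in the progesterone arrays, against 9.52 and 9.70 in the TGFb1 arrays. The Y-linked gene Eif2s3y had 4.25 and 0.49 with progesterone, against 689.0 and 727.5 with TGFb1 alone, and the Y-linked genes Kdm5d (-3.77 ± 0.22) and Uty (-3.20 ± 0.24) fell as well by limma. Every value of Maf was compared between arrays that differ in this way, and progesterone and the sex of the cells cannot be told apart here. The Maf gene itself lies on chromosome 8.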

How the data were processed

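RNA of 4 samples was measured on 1-colour arrays of 45101 probe sets. Each array has 1 column of deposited intensity values on a linear scale, for which the submitters' processing notes name MAS5. Its version and scaling are not given in the sources used here. Arrays have no depth, and their number, 4 with 2 residual degrees of freedom, limits the precision.

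Trimmed means (2% off each end) of the arrays differed by up to 1.43 times, so values were quantile normalised and taken as log2(signal + 16), which understates the change of dim genes. Control probe sets (64) were dropped, and 22518 probe sets with a mean above the median were kept. Genes were named by the platform annotation and their symbols updated through Entrez identifiers in a RefSeq table of GRCm38.p6 (34741 of 34945 single-gene probe sets matched). No coordinates are given, since no build is stated for the array.

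The brightest single-gene probe set on average stood for each of 10512 genes. Differences, progesterone minus TGFb1 alone, went through limma 3.58.1 under R 4.3.3 (eBayes with an intensity trend, Benjamini-Hochberg, threshold 0.05), a step tested on simulated data. With 2 arrays per group an exact permutation test cannot go below p = 0.333, so none is given. Genes named are all Maf probe sets, the 4 cytokine genes, members of the lists that passed with the 3 brightest that did not, the 8 nearest profiles, the 2 brightest tested markers per cell type and 5 sex-linked genes, of which Ddx3y is not analysed here. Further genes (Csf1r, Adgre1, Cd68, Fcgr3, Cd14, Mrc1, Itgam, C1qa, C1qb, Kit, Ms4a2, Cd3e, Cd4, Ccr6, Procr, Jun, Fos, Mafg, Mafk and Maff) were named after their values were seen. The members and lists were chosen with earlier results of these data known. Alternatives were other scalings and added constants (1 and 64), other level filters, variance models and probe set rules, the replicate number as a block, and leaving out each array, with the probe sets held fixed.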

Additional observations from a re-analysis of the deposited data

How the results depend on the processing

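All 6 Maf differences kept their direction under every scaling, added constant, block and left-out array. As deposited they were 2.35 (1456060_at), 1.99 (1437473_at) and 1.45 (1435828_at), and centred on the array median 2.22, 1.87 and 1.32, with 1.21 for 1447849_s_at. With an added 1 they were 2.40 (1437473_at), 1.82 (1435828_at), 2.68 (1444073_at) and 0.41 (1447945_at), and with an added 64 1.77, 1.19, 1.02 and 0.16. Leaving out 1 array gave 2.02 to 2.32 (1437473_at), 1.46 to 1.68 (1435828_at) and 1.70 to 1.99 (1444073_at). The added constant acts most on dim sets by construction.

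For the cytokine probe sets, Il10 was at 0.32 as deposited, 0.37 with an added 1, 0.0745 with an added 64 and 0.18 to 0.20 with 1 array left out. The Il21 set 1447288_at was at 0.23, 0.55 and 0.0443 in the first 3 of these settings, Il4 at 1.11 with an added 1, and the set of Il22 and Iltifb at -0.49 with an added 1 and -0.16 when centred.

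The count of changed genes was 873, and 3805 when centred (156 up, 3649 down), 1896 with the replicate block, 487 with no level filter, 454 with no intensity trend and 257 to 1185 with 1 array left out, 399 without progesterone replicate 1 and 257 without progesterone replicate 2. As deposited 148 rose and 797 fell. The 5 upstream genes that changed became 2 as deposited (both down), 10 when centred (all down), 8 with the replicate block, 1 with no intensity trend, 3 when the probe sets of a gene were averaged and 0 to 6 with 1 array left out. The 2 partner genes became 5 when centred, 4 with the replicate block, 1 with no intensity trend, 1 with averaged probe sets and 1 to 4 with 1 array left out. The 1 target gene became 2 as deposited, 4 when centred, 4 with the replicate block, 0 with no level filter, 0 with no intensity trend and 0 to 2 with 1 array left out. Of the named genes, 8 turned negative as deposited, Bach2 (-0.32), Il6st (-0.36), Stat6 (-0.35), Cd3d (-0.24), Icos (-0.20), Smad4 (-0.23), Nfe2l2 (-0.0747) and Stat3 (-0.0306), and none passed there. The same 8 and Cx3cr1 (-0.11) did so when centred, with Bach2 (-0.44), Il6st (-0.48), Stat6 (-0.47) and Cd3d (-0.36) passing as falls and Stat3 at -0.15. No intensity trend also ended the calls of Tgfbr1, Tgfbr2, Stat3, Irf4, Bach1, Ctla4 and Ms4a2, and averaged probe sets those of Tgfbr1, Stat3, Irf4 and Bach1. The median of all tested genes was -0.22 as deposited and -0.34 when centred, so both settings favour falls over rises. The cause of the other changes was not tested.

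Same-numbered arrays share only a number. Their deviations from the group means correlated at 0.196 across genes, and the labels do not pair them. Of the 8 profiles nearest to Maf, 4 stayed with an added 64 and 3 to 6 with 1 array left out, alternatives chosen after seeing the data. Signals near the array medians, or far below them, limit what can be read for Il10, Il21, Il4, Il22 and 1447945_at.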
